A study of Mus musculus with 19 samples.

Results

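The 9 complement components and receptors described here were C1qa, C1qb, C1qc, C2, C3, C4b, Cfb, C3ar1 and C5ar1. They were chosen by gene symbol, and all 9 were found among the 36682 genes of the deposited table of counts and FPKM (a level that corrects for gene length and sequencing depth). RNA was sequenced in bulk from dorsal root ganglia L3 to L5, where the cell bodies of sensory neurons of the lower back and leg lie, from 19 male mice. Every mouse, controls included, was homozygous for MaFIA (macrophage Fas-induced apoptosis), a transgene under the Csf1r promoter through which the dimerizing drug AP20187 triggers death of macrophages and other Csf1r-expressing cells throughout the body. Mice either had destabilization of the medial meniscus (DMM), a knee operation that models osteoarthritis, or were naive mice of matched age that had no such surgery. AP20187 or vehicle was injected into the peritoneum daily for 5 days, in DMM mice at 8 weeks after surgery. AP20187 was given to 5 DMM and 4 naive mice, and vehicle to 5 DMM and 5 naive mice. Each library held the pooled ganglia of 1 mouse, taken in DMM mice from the side of the operated knee, and mice are named by group and by the number in their label. The total count of a library ranged from 60984830 to 74691396.

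Complement is a cascade of plasma and tissue proteins that tags targets and recruits leukocytes. The classical pathway starts when C1q, built from the chains encoded by C1qa, C1qb and C1qc, binds a target and its proteases cleave C4 and C2; the alternative pathway uses factor B, the product of Cfb; both converge on C3. Cleavage of C3 and C5 releases the peptides C3a and C5a, which act on the receptors encoded by C3ar1 and C5ar1. In nervous tissue C1q transcripts come chiefly from macrophages and microglia, and C5a acting on its receptor is known for recruiting neutrophils and sensitizing nociceptors.

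All 12 sensory neuron markers were detected in every group, with summed levels of 5090 to 13000 CPM in DMM with vehicle and 7730 to 14400 CPM in naive with vehicle (CPM, counts scaled to a common library size). With AP20187 these sums were 1710 to 6570 CPM in DMM and 2010 to 9980 CPM in naive. Markers of marrow and blood cells also differed. Of 7 erythroid markers, 5 fell in DMM and 0 in naive, beside 12.4% and 2.57% of all genes that fell. Their sums were 1300 to 5220 CPM with AP20187 and 1600 to 26700 CPM with vehicle in DMM, and 1940 to 4280 CPM and 3330 to 13300 CPM in naive. The sum over 10 neutrophil markers was 15100 to 25400 CPM in DMM with AP20187 against 407 to 7910 CPM with vehicle, and 7040 to 25100 CPM in naive with AP20187 against 861 to 2330 CPM with vehicle. Csf1r, whose promoter drives the transgene, did not differ detectably with AP20187, at 69.1 ± 35.9 CPM against 70.0 ± 48.3 CPM in DMM and 69.4 ± 12.9 CPM against 50.9 ± 29.4 CPM in naive (SD over mice). Its log2 fold change was -0.02 in DMM (95% interval -0.98 to 0.94) and 0.45 in naive (-0.57 to 1.46). The groups are therefore named by label and not by loss of macrophages. In bulk tissue, fewer cells of a type and less RNA per cell cannot be told apart, and the same holds for gains.

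Of the 9 complement genes, C3, C4b, Cfb and C5ar1 rose with AP20187 in both surgical states and C2 passed in neither. None of the 9 was lower by estimate or by test, where 12.4% of genes tested fell in DMM and 2.57% in naive. In DMM mice, C3, C4b, Cfb and C5ar1 rose with AP20187, which is 4 of 9, while 11.3% of the 22778 genes tested rose. In naive mice, C1qb, C3, C4b, Cfb, C3ar1 and C5ar1 rose, which is 6 of 9, against 8.61% of genes tested. The median log2 fold change of the 9 genes was 1.38 in DMM and 1.87 in naive, while the medians of all genes were -0.10 and -0.07. Tests were edgeR quasi-likelihood F tests with Benjamini-Hochberg adjustment over all genes, and a gene was called at an adjusted p under 0.05. All 9 genes passed the filter on low counts. The number called in DMM was 7 without mouse DMM AP20187 61 and 8 without DMM vehicle 64, and in naive it was 3 without naive AP20187 3 and 3 without naive vehicle 2. The share of all genes called in either direction in DMM moved too with the mice used. It was 36.3% against vehicle 32 to 34 alone and 4.73% against vehicle 63 and 64 alone. Changes in these counts are therefore not read as changes of the 9 genes alone.

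**Figure D1:**
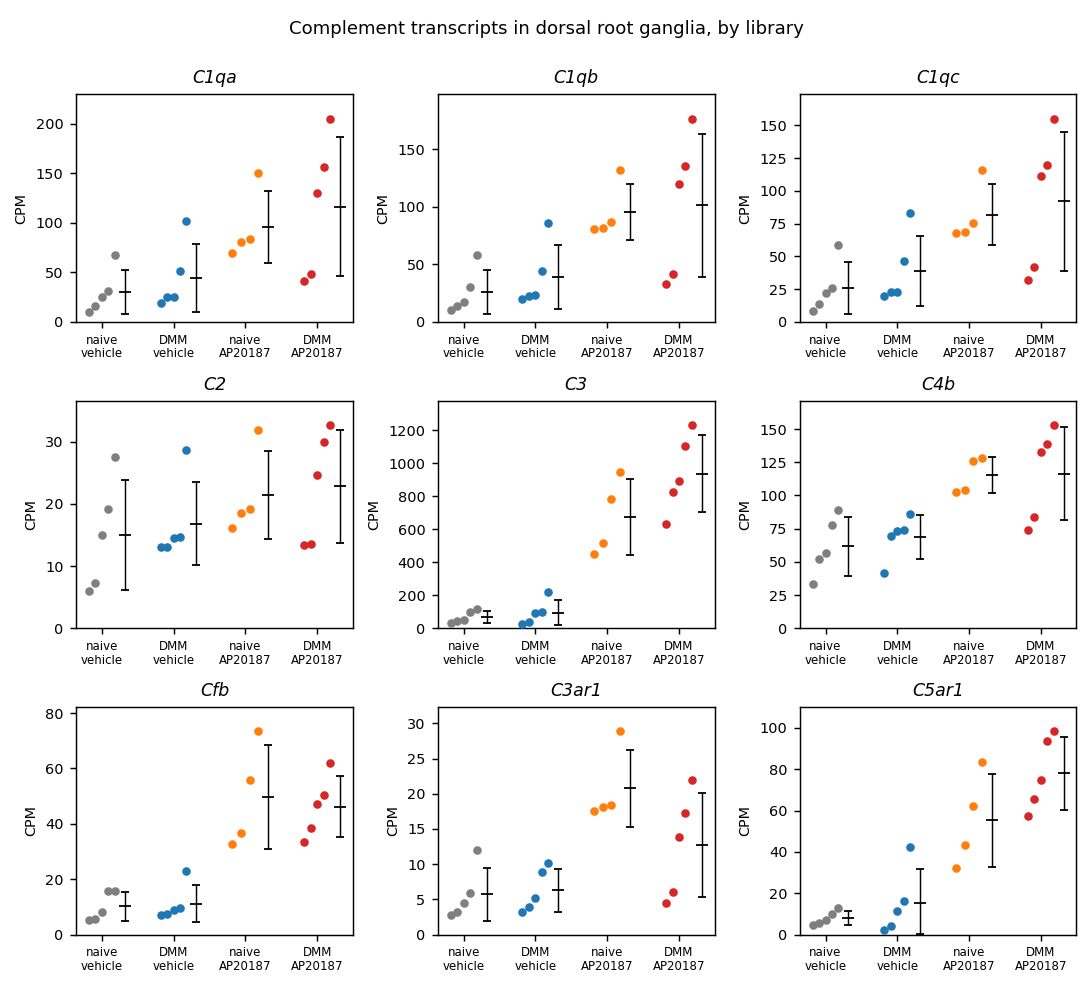
Level of the 9 complement genes in each library, in CPM, one panel per gene. Points are mice sorted by value within their group and bars are the mean ± SD; in the panels of C3 and Cfb the 9 AP20187 mice all lie above the 10 vehicle mice, whereas in that of C2 the groups overlap.

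**Figure D2:**
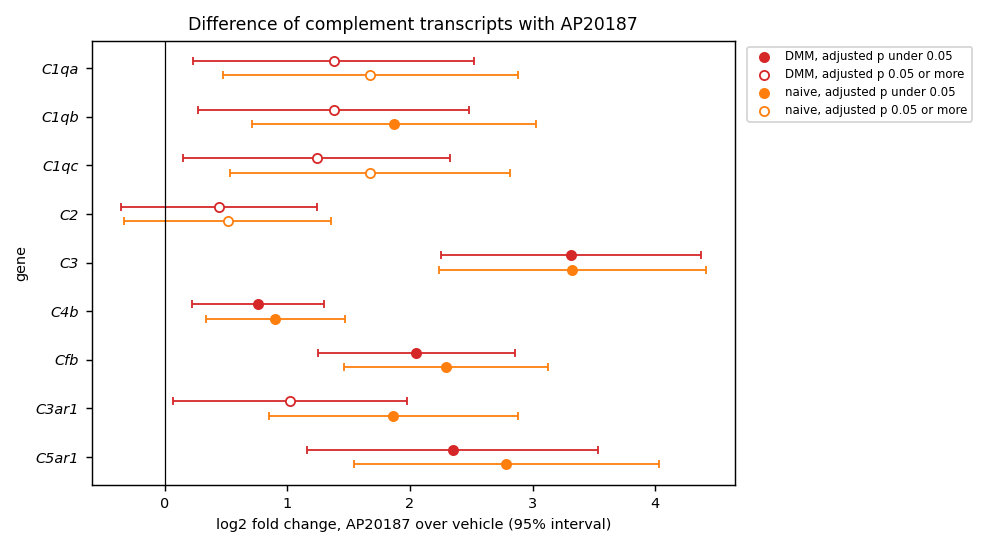
Log2 fold change of AP20187 over vehicle for each of the 9 genes in DMM and naive mice, with 95% intervals from the edgeR fit and filled points at an adjusted p under 0.05. C3 has the largest estimate of the 9 in both states (3.31 and 3.32), and the intervals of C2 include 0 in both.

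The 3 genes of C1q lie beside each other on chromosome 4 (GRCm39), C1qa at 136623228 to 136626114, C1qc at 136617115 to 136620376 and C1qb at 136607440 to 136613498, all on the minus strand and with no overlapping annotated gene. C1qb was at 177, 136, 120, 41.4 and 33.2 CPM in DMM AP20187 58 to 62, and at 22.3, 19.6, 23.3, 43.9 and 85.9 CPM in DMM vehicle 32, 33, 34, 63 and 64. Mice 58, 59 and 60 were above every DMM vehicle mouse, whereas 61 and 62 lay below DMM vehicle 63 and 64. In naive mice C1qb was at 81.8, 132, 81.1 and 87.1 CPM in AP20187 1, 3, 4 and 5, and at 30.8, 13.7, 58.0, 17.5 and 10.7 CPM in vehicle 1 to 5. All 4 AP20187 mice were above all 5 vehicle mice, of which vehicle 3 was the highest. The log2 fold change of C1qb was 1.87 in naive (SE 0.55, adjusted p 0.0367) and 1.38 in DMM (SE 0.53, adjusted p 0.0639). The naive call was lost without any 1 of AP20187 1 and 3 and vehicle 1, 2, 4 and 5 (adjusted p 0.0652 to 0.115). The DMM estimate passed without DMM vehicle 64 (1.89, adjusted p 0.0109), AP20187 61 (1.58, adjusted p 0.0352) or AP20187 62 (1.60, adjusted p 0.0432).

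C1qa and C1qc did not pass the threshold in edgeR with all mice, but did in both states under DESeq2. Over the settings beside the main one, C1qa was called in 4 of 19 in DMM and 4 of 17 in naive. C1qc was called in 3 of 19 and 6 of 17. Against DMM vehicle 63 and 64 alone, edgeR gave C1qa 0.63 (adjusted p 0.69) and C1qc 0.54 (adjusted p 0.731). C1qa was at 117 ± 70.5 CPM in DMM with AP20187 and 44.9 ± 34.4 CPM with vehicle, while the naive groups had 96.1 ± 36.4 and 30.03 ± 22.45 CPM (SD). The log2 fold change of C1qa was 1.38 for DMM mice (adjusted p 0.0723) and 1.68 for naive mice (adjusted p 0.0647). For C1qc the estimates were 1.24 (adjusted p 0.0876) and 1.67 (adjusted p 0.0541). The DESeq2 adjusted p of C1qa and C1qc were 0.0278 and 0.0392 in DMM and 0.0201 and 0.0147 in naive. With only the 2 naive groups in the edgeR fit they were 0.0375 and 0.0351, and limma on log2 FPKM gave C1qc in naive 0.0447 or 0.0423 by pseudocount. In naive mice all 4 AP20187 libraries exceeded all 5 vehicle libraries for each of the 3 chains, by as little as 1.04 times for C1qa, and in DMM mice 3 of 5 did. Without DMM vehicle 64, C1qa in DMM was 1.93 (adjusted p 0.0116) and C1qc was 1.72 (adjusted p 0.0174). Without DMM AP20187 61, C1qa was 1.57 (adjusted p 0.0428). Without naive vehicle 3, C1qa in naive was 2.22 (adjusted p 0.0223) and C1qc was 2.24 (adjusted p 0.0156).

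The ratio of C1qa to C1qc was steadier over mice than that of C1qa to C1qb. Per length, C1qa stood at 1.84 to 2.46 times the FPKM of C1qc and at 0.894 to 1.49 times that of C1qb over the 19 libraries. After group means were subtracted, log2 CPM of C1qa and C1qc had Pearson's r 0.995 and Spearman's rho 0.991 over 19 libraries, and r 0.993 without the 2 mice farthest from the median. The permutation p was 1e-05 for each, the smallest that 100000 resamples within groups can give, and the adjusted p over the 36 pairs of the 9 genes were 9e-05 and 4.5e-05.

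Relative to Csf1r, the summed C1q transcripts were higher with AP20187. The ratio of the C1q sum to Csf1r, both in CPM, was 3.50 to 5.24 in DMM with AP20187 and 1.47 to 2.10 with vehicle. It was 3.36 to 4.59 in naive with AP20187 and 1.18 to 1.88 with vehicle. DMM AP20187 61 and 62, which were low in C1q itself, had ratios of 4.04 and 3.50. Set against the sum of 10 macrophage markers the ranges came closer, at 0.586 to 0.946 against 0.421 to 0.650 in DMM and 0.662 to 0.844 against 0.324 to 0.507 in naive. Of those 10 markers, 2 rose in DMM and 4 in naive, beside 11.3% and 8.61% of all genes, and none was at 0 in a group. Their sum was 183 to 583 CPM in DMM with AP20187 and 136 to 417 CPM with vehicle, and 301 to 472 and 80.9 to 363 CPM in naive. In the sum over 8 fibroblast markers, as in C1q, 61 and 62 were the lowest of the DMM AP20187 mice. Vehicle 63 and 64 were the highest of the DMM vehicle mice in both. Unlike in C1q, vehicle 64 had a higher fibroblast sum than every DMM AP20187 mouse. The sum was 6540, 6230, 5370, 2550 and 1990 CPM in AP20187 58 to 62, and 2140, 1270, 1640, 4500 and 7120 CPM in vehicle 32, 33, 34, 63 and 64. In naive mice it was 3210, 6040, 3050 and 3210 CPM in AP20187 1, 3, 4 and 5 and 886 to 4430 CPM with vehicle. Of these 8 markers, 1 rose in DMM and 0 in naive, and none was at 0 in a group. Satellite glia marker sums in DMM were 3820, 4020, 3720, 2650 and 1880 CPM in AP20187 58 to 62. In vehicle 32, 33, 34, 63 and 64 they were 3200, 2310, 2530, 5330 and 4920 CPM. AP20187 61 and 62 were again the lowest of their group, but vehicle 63 and 64 were above every DMM AP20187 mouse. The part of the numbers of these cells in the C1q levels was not tested.

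**Figure D3:**
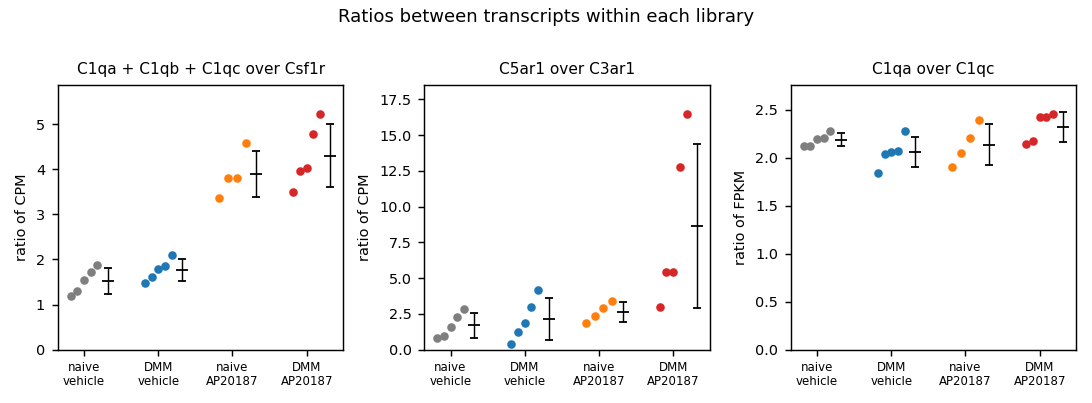
Ratios between transcripts in each library, with the mean ± SD per group: the 3 C1q genes over Csf1r (CPM), C5ar1 over C3ar1 (CPM) and C1qa over C1qc (FPKM). The first ratio is 3.36 or more in every AP20187 mouse and 2.10 or less in every vehicle mouse; the third spans 1.84 to 2.46 over all 19.

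The promoter of C1qc is shown because the C1q genes varied together and because it holds a match to the letters of PU.1, a transcription factor of macrophages. That of C1qb, not printed here, also holds such a match, at -30 to -25 from the start. Promoters come from RefSeq on GRCm38.p6 as the 250 bases before the start, and 5 of the 9 genes matched by symbol. The motifs ISRE (GAAA, any 2 bases, GAAA), NF-kB (GGG, any 2 bases, TTTCC), GAS (TTCNNNGAA), C/EBP (TTGCNNAA), PU.1 (GAGGAA) and TATA box (TATAAA) were searched on both strands. Capitals mark the match to PU.1 on the opposite strand, at -193 to -188 from the start. The window is chr4:136892915-136893164, minus strand.
C1qc: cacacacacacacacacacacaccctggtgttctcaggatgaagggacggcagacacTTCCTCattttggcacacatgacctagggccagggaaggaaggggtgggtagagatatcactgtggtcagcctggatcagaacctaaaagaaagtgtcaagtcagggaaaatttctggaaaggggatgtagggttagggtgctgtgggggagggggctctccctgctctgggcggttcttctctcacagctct
The letters of PU.1 occur in 23.3% of 32851 promoters of this length, so the match is a description and not a site.

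C2 and C4b encode the substrates that the C1 proteases cleave to form the classical C3 convertase. C2 (chromosome 17, 35081580 to 35117241, minus strand) did not pass in either state. It was at 22.8 ± 9.05 CPM in DMM with AP20187 and 16.8 ± 6.68 CPM with vehicle, and at 16.1 to 31.9 CPM with AP20187 and 6.03 to 27.5 CPM with vehicle in naive. Its log2 fold changes were 0.44 (95% interval -0.36 to 1.24, adjusted p 0.436) and 0.51 (-0.33 to 1.35, adjusted p 0.401), intervals that include both no difference and a doubling. The C2 annotation overlaps 3 genes, 1 of them on the same strand, so its counts may include reads of a neighbour.

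C4b (chromosome 17, 34947354 to 34962856, minus strand) rose by less than C3 or Cfb did in these estimates. It was at 153, 139, 133, 83.5 and 74.4 CPM in DMM AP20187 58 to 62, and at 41.3, 86.3, 73.2, 74.1 and 69.2 CPM in DMM vehicle 32, 33, 34, 63 and 64. Mice 61 and 62, which were also the lowest of their group in the fibroblast sum, lay within the vehicle range and the other 3 above it. In naive mice it was at 104, 126, 129 and 103 CPM with AP20187 and at 77.7, 51.8, 89.4, 56.6 and 33.0 CPM with vehicle, with no overlap. C4b thus rose by 0.76 log2 units in DMM mice (SE 0.26, adjusted p 0.0399) and by 0.90 in naive mice (SE 0.27, adjusted p 0.0385). Both calls were near the threshold. The DMM call was kept in 5 of 19 other settings and lost without any 1 of AP20187 58, 59 and 60 and vehicle 32, 34 and 63 (adjusted p 0.0558 to 0.11). The naive call was kept in 6 of 17 and lost without any 1 of AP20187 1, 3 and 4 and vehicle 2, 4 and 5 (adjusted p 0.0612 to 0.114). C4a, a near-identical copy whose reads can be counted to either gene, was at 1.85 CPM or less in 3 of the group means and at 2.36 CPM in naive with AP20187.

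C3, the component on which all pathways converge, had the largest estimate of the 9 genes in both states. The gene lies on chromosome 17 at 57510970 to 57535136 on the minus strand. It was at 1104, 824, 891, 634 and 1231 CPM in DMM AP20187 58 to 62, and at 26.5, 36.6, 95.9, 93.25 and 219 CPM in DMM vehicle 32, 33, 34, 63 and 64. The lowest AP20187 mouse stood 2.89 times above the highest vehicle mouse, which was 64. In naive mice C3 was at 783, 947, 518 and 450.1 CPM in AP20187 1, 3, 4 and 5 and at 51.8, 41.3, 98.7, 114 and 30.7 CPM in vehicle 1 to 5. Here the lowest AP20187 mouse was 3.94 times the highest vehicle mouse. C3 rose by 3.31 log2 units in DMM mice (SE 0.51, adjusted p 0.000406) and by 3.32 in naive mice (SE 0.52, adjusted p 0.000912), which is 9.94-fold and 10.01-fold.

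By rank of CPM among all genes, C3 was the 55th to 138th most abundant transcript in DMM mice with AP20187 and the 547th to 6796th in those with vehicle. In naive mice the ranks were 73 to 256 and 1772 to 6073. C3 and Cfb were the 2 of the 9 genes for which all 9 AP20187 mice exceeded all 10 vehicle mice, a pattern met by 1.76% of genes tested. Within DMM, the mice did not overlap for C3, Cfb and C5ar1 (8.71% of genes tested), and within naive for all of the 9 but C2 (9.39%).

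Per length, mean C3 was above C1qa and C1qb in the AP20187 groups and below both in the vehicle groups. Mean FPKM of C3 was 176 in DMM with AP20187 against 112 for C1qa and 93.1 for C1qb, whereas with vehicle C3 was at 18.7, C1qa at 43.8 and C1qb at 36.4. In naive mice C3 was at 111.5 FPKM with AP20187 beside 79.2 for C1qa, and at 12.9 beside 28.5 with vehicle. The order of means with AP20187 in DMM ran from C3 through C1qa, C1qb, C1qc, C5ar1, C4b, Cfb and C2 to C3ar1 at 2.93 FPKM. Neighbours such as C1qa and C1qb, or C4b and Cfb at 20.2 ± 7.04 and 16.1 ± 4.64 FPKM, lay within each other's SD. C1qc was close to C3 with vehicle, at 20.5 beside 18.7 FPKM in DMM and 13.1 beside 12.9 FPKM in naive. With vehicle in DMM, C5ar1 (6.13 FPKM) and Cfb (4.00 FPKM) stood beside C2 (4.36 FPKM), again within the spread over mice.

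Cfb encodes factor B, which forms the alternative C3 convertase. It lies on chromosome 17 at 35075350 to 35081494 on the minus strand, 85 bases from C2. Cfb was at 61.9, 38.6, 47.0, 50.4 and 33.4 CPM in DMM AP20187 58 to 62, and at 6.94, 7.34, 8.81, 9.52 and 23.1 CPM in DMM vehicle 32, 33, 34, 63 and 64. The vehicle mice were below 10 CPM except 64, and the groups did not overlap. In naive mice it was at 36.7, 73.4, 32.8 and 55.8 CPM with AP20187 and at 8.15, 5.77, 15.9, 15.7 and 5.25 CPM with vehicle. Every AP20187 mouse was at least 2.07 times above the highest vehicle mouse. Cfb rose by 2.05 log2 units in DMM mice (SE 0.38, adjusted p 0.00163) and by 2.29 in naive mice (SE 0.40, adjusted p 0.00198). The annotated genes Gm20547 and Mir6972 overlap Cfb, so its counts may include reads of Gm20547, which lies on the same strand. The neighbour C2 did not pass in either state. The FPKM of Cfb over that of C2 was 1.77 to 5.12 in DMM with AP20187 and 0.657 to 1.11 with vehicle, and 2.34 to 4.15 against 0.748 to 1.19 in naive.

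Liver is the main source of plasma C3 and factor B, so hepatocyte markers were read beside these genes. The sum of 8 hepatocyte markers was 189 to 629 CPM in DMM with AP20187 and 60.9 to 371 CPM with vehicle, and 320 to 521 CPM in naive with AP20187 and 55.9 to 209 CPM with vehicle. The median log2 fold change of the 8 markers was 1.10 in DMM and -0.14 in naive. The naive sums thus do not show a rise of the list as a whole. In naive mice Trf rose (1.89, adjusted p 0.033) and Ttr fell (-1.25, adjusted p 0.00423). In DMM none of the 8 passed in edgeR and 1, Trf, had an unadjusted p under 0.05. Alb, which encodes albumin, was at 5.35 ± 4.87 CPM in DMM with AP20187 and 1.66 ± 2.40 CPM with vehicle, and Alb and Fgb were at 0 in every naive AP20187 library. The part of liver RNA in the C3 and Cfb levels was not tested.

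C3ar1, the receptor for C3a, lies on chromosome 6 at 122824097 to 122833120 on the minus strand. It was at 17.3, 21.95, 13.9, 4.49 and 5.98 CPM in DMM AP20187 58 to 62, and at 5.20, 3.24, 3.86, 8.83 and 10.2 CPM in DMM vehicle 32, 33, 34, 63 and 64. As for C1q, mice 61 and 62 lay within the vehicle range. They were also the lowest of their group in the fibroblast marker sum, in which every DMM AP20187 mouse lay within the DMM vehicle range. In naive mice it was at 18.1, 28.9, 18.4 and 17.6 CPM with AP20187 and at 5.96, 3.17, 12.0, 4.49 and 2.83 CPM with vehicle, with no overlap. The log2 fold change was 1.87 in naive (SE 0.48, adjusted p 0.0199) and 1.02 in DMM (SE 0.46, adjusted p 0.109). The naive call was lost without naive AP20187 3 (adjusted p 0.072) and without naive vehicle 2 (adjusted p 0.0566), and in DMM it passed without DMM AP20187 61 (1.24, adjusted p 0.0446).

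C5ar1, the receptor for C5a, lies on chromosome 7 at 15980668 to 15993465 on the minus strand. It was at 93.8, 65.5, 74.8, 57.3 and 98.4 CPM in DMM AP20187 58 to 62, and at 2.19, 3.90, 11.6, 16.5 and 42.5 CPM in DMM vehicle 32, 33, 34, 63 and 64. The DMM vehicle mice spanned a range of 19.4 times, the widest of the 9 genes in any group, yet stayed below all DMM AP20187 mice. In naive mice C5ar1 was at 62.1, 83.4, 43.2 and 32.2 CPM with AP20187 and at 5.71, 7.20, 9.80, 12.8 and 4.50 CPM with vehicle. All 4 AP20187 mice were above all 5 vehicle mice. C5ar1 rose by 2.35 log2 units in DMM mice (SE 0.57, adjusted p 0.00782) and by 2.79 in naive mice (SE 0.59, adjusted p 0.00676). Leaving out DMM vehicle 64 gave 3.19 in DMM (adjusted p 0.000294).

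The balance of the receptors differed between mice. In CPM, C5ar1 stood at 2.98 to 16.5 times C3ar1 in DMM with AP20187 and at 0.421 to 4.17 times with vehicle, with the highest ratios in DMM AP20187 62 and 61. In naive mice the ratio was 1.83 to 3.43 with AP20187 and 0.815 to 2.85 with vehicle, and the groups overlapped. The group-centred levels of C5ar1 tracked those of C3, with r 0.953 and rho 0.947 over 19 libraries and r 0.923 without the 2 farthest mice. The permutation p were 1e-05 and 2e-05, and 9e-05 and 7.2e-05 after adjustment over the 36 pairs. C3ar1 tracked C1qa, with r 0.950 and rho 0.942 (r 0.940 without 2 mice, permutation p 2e-05 and 1e-05, adjusted 9e-05 and 4.5e-05). Between C3ar1 and C5ar1, r was 0.438 and rho 0.481 (permutation p 0.0591 and 0.0464, adjusted 0.0645 and 0.0523, r 0.508 without 2 mice). Between C3 and C3ar1, r was 0.514 and rho 0.495 (permutation p 0.0339 and 0.0459, adjusted 0.0382 and 0.0523, r 0.504 without 2 mice). Between C1qa and C5ar1, r was 0.569 and rho 0.600 (permutation p 0.0145 and 0.0132, adjusted 0.02 and 0.0216, r 0.411 without 2 mice). Of the 36 pairs, 32 had an adjusted p under 0.05 by r and 29 by rho. The share of other gene pairs that would pass was not computed, so these counts are not read as particular to complement genes. Among 14463 genes searched, others had higher r than C3 with C5ar1, such as Sp100 with C3 (0.992) and Mmp8 with C5ar1 (0.989). Differences between the correlations of the 36 pairs were not tested.

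**Figure D4:**
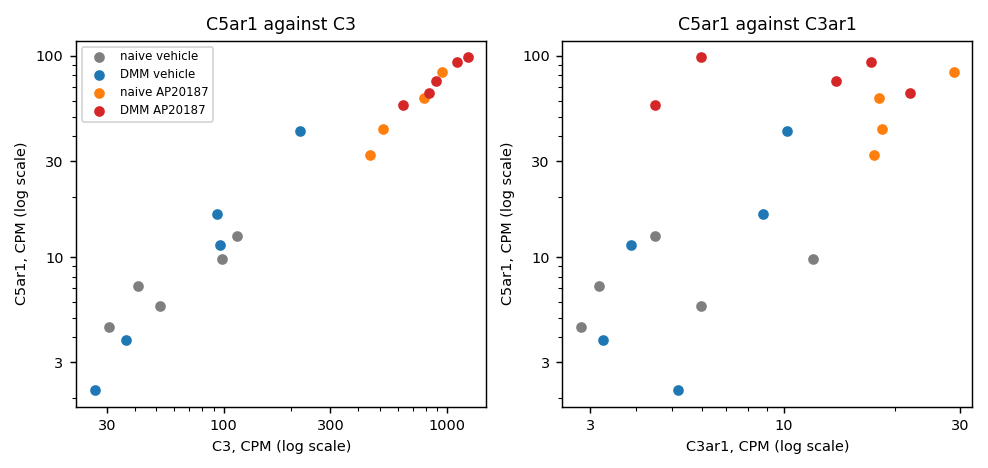
CPM of C5ar1 against C3 and against C3ar1 on log axes, one point per mouse, coloured by group. Along C3 the mice form a narrow band, whereas DMM AP20187 61 and 62 stand apart on the right panel with C3ar1 at 4.49 and 5.98 CPM and C5ar1 at 57.3 and 98.4 CPM.

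Genes with the most similar pattern were listed over 14463 genes as a description, by r of group-centred log2 CPM over the same 19 libraries. For the mean of the C1q genes they were Adgre1 (0.981), Ms4a6d (0.98) and H2-Ab1 (0.976). Those of C3ar1 were Adgre1 (0.961), Cd86 (0.950) and Dcn (0.949). For C3 they were Sp100 (0.992), Myo1f (0.991) and Dock2 (0.988), and for C5ar1 Mmp8, Padi4 (each 0.989) and Csf3r (0.987). Adgre1 encodes the macrophage antigen F4/80, Mmp8 neutrophil collagenase and Csf3r the receptor for G-CSF. C4b was followed by Siglec1 (0.927) and Adap2 (0.862). Cfb was followed by Col5a2 (0.939), Thbs3 (0.936) and Sfrp4 (0.934), of which Col5a2 encodes a fibrillar collagen chain, and C2 by Serping1 (0.952), Nid1 (0.951) and Clec1a (0.949). Libraries shared depth and tissue makeup in all of these values.

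Markers of marrow myeloid cells and of endothelium differed between the same groups as C3 and C5ar1. For the counts that follow, 11.3% of all genes rose in DMM and 8.61% in naive. Of 10 neutrophil markers, 6 rose in DMM and 7 in naive, and all 6 granulocyte precursor markers rose in both, with sums of 1300 to 2750 CPM in DMM with AP20187 and 32.0 to 451 CPM with vehicle. In naive mice the precursor sums were 349 to 1780 CPM and 49.8 to 129 CPM. DMM vehicle 64, the vehicle mouse highest in C3 and C5ar1, had the highest neutrophil sum of the vehicle mice (7910 CPM), and DMM AP20187 62 the highest of all 19 (25400 CPM). Of 6 monocyte markers, 4 rose and 1 fell in DMM and 3 rose and 1 fell in naive. Their sum was 3210 to 8730 CPM in DMM with AP20187 and 136 to 1390 CPM with vehicle, and 1600 to 4940 CPM and 214 to 594 CPM in naive. Of 7 endothelial markers, 3 rose in DMM and 2 in naive, with sums of 169 to 323 CPM against 74.4 to 166 CPM and of 228 to 516 CPM against 71.5 to 336 CPM. No marker of these 4 lists was at 0 in a group. The part of these cells in the C3 and C5ar1 levels was not tested.

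The promoters of C3 and C5ar1 are shown because the levels of these genes tracked each other. In that of C3, chr17:57228137-57228386 on the minus strand, capitals mark a match to the C/EBP letters at -45 to -38, which 9.56% of promoters hold. That of C5ar1, chr7:16259339-16259588 on the minus strand, held no match to the 6 motifs in these 250 bases and is in lower case throughout.
C3: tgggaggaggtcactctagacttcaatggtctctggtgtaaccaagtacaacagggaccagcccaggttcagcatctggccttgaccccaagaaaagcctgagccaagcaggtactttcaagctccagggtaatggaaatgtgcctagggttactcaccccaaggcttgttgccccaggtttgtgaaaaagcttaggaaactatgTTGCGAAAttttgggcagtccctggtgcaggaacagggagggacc
C5ar1: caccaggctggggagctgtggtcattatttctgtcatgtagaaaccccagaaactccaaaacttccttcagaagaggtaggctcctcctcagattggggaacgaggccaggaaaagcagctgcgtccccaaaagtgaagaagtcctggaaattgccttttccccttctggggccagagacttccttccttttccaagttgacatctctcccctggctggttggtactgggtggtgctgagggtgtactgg
Of the other 5 motifs none matched in the C3 window.

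Surgery alone went with no call among the 9 genes. Between DMM and naive mice given vehicle, 0 of 9 passed in edgeR and 0 in DESeq2 and limma, 0 had an unadjusted p under 0.05, and 0.0% of all genes were called. Estimates ran from 0.14 for Cfb and C3ar1 to 0.94 for C5ar1, whose 95% interval was -0.21 to 2.08. The groups overlapped for each of the 9 genes, and 0.127% of all genes were higher in every DMM mouse. Of DMM vehicle mice, 63 and 64 were higher in C5ar1 and C1q than 32, 33 and 34. With only 63 and 64 as the DMM vehicle mice, C5ar1 was higher than in naive vehicle by 1.93 (adjusted p 0.0485), beside 2.21% of all genes called. With all DMM vehicle mice but 64 its estimate was 0.09, and with only 32 to 34 its estimate was -0.44, beside 0.0% of all genes called. The labels name no batch for these numbers.

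With AP20187, 0 of 9 genes differed between DMM and naive mice, where 0.702% of all genes did. None of the 9 had an unadjusted p under 0.05, and DESeq2 and limma also called 0. The mice overlapped for each of the 9, while 3.46% of all genes were higher in every DMM mouse. C3 differed by 0.47 (95% interval -0.56 to 1.51), and C3ar1, at 12.7 ± 7.43 CPM in DMM and 20.8 ± 5.43 CPM in naive, by -0.71 (-1.70 to 0.29, adjusted p 0.463). The AP20187 effect itself did not differ detectably between the surgical states. The interaction was called for 0 of 9 genes by edgeR, DESeq2 and limma, with 0 at an unadjusted p under 0.05 and 0.114% of genes called. It was -0.01 for C3 (-1.43 to 1.40) and -0.84 for C3ar1 (-2.22 to 0.54), so differences of over 2-fold in either direction were within the limits for C3.

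The DMM vehicle mice used as the reference changed the AP20187 estimates. Against mice 63 and 64 alone, the log2 fold change in DMM was 2.58 for C3 (adjusted p 0.0172), 1.504 for Cfb (adjusted p 0.0981) and 1.40 for C5ar1 (adjusted p 0.0977), and 1 of the 9 genes was called beside 4.73% of all genes. Against 32, 33 and 34 alone, 7 of 9 were called beside 36.3% of all genes, with 4.14 for C3, 3.73 for C5ar1, 2.31 for C1qa (adjusted p 0.00751) and 1.63 for C3ar1 (adjusted p 0.0227).

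Beyond the 9 genes, 51 other complement genes were listed, of which 44 passed the filter. In DMM 12 rose and 4 fell with AP20187, with a median log2 fold change of 0.40 (23.8% of all genes were called in either direction). In naive 7 rose and 2 fell, with a median of 0.35 (11.2% of all genes). Against DMM vehicle 63 and 64 alone 4 were called, beside 4.73% of all genes. Without DMM AP20187 58 the DMM calls were 10, and in naive they were 4 without AP20187 1 and 5 without AP20187 3 or vehicle 5. None of the 44 passed by edgeR between DMM and naive, and 0 under vehicle and 4 under AP20187 had an unadjusted p under 0.05.

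**Figure D5:**
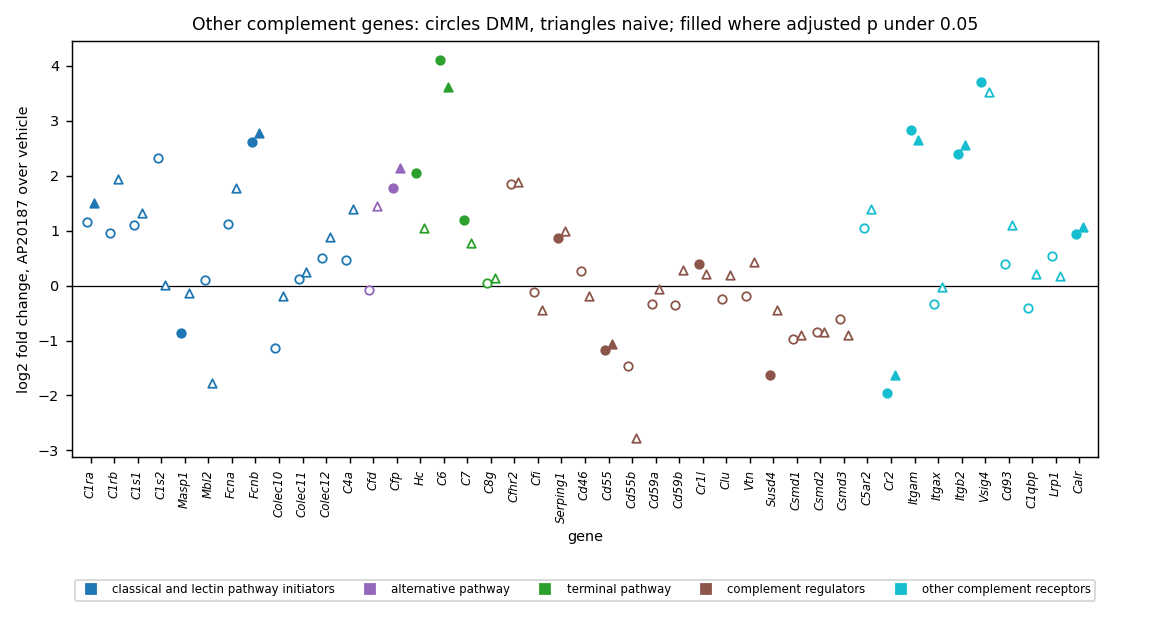
Log2 fold change of AP20187 over vehicle for other complement genes that were tested, ordered and coloured by role, with circles for DMM, triangles for naive and filled symbols at an adjusted p under 0.05. C6 is the highest filled gene in both states (4.11 and 3.61), and Cd55 and Cr2 are filled below 0 in both.

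Among 12 tested initiators of the classical and lectin pathways, 1 rose and 1 fell in DMM and 2 rose in naive, beside 23.8% and 11.2% of all genes called, so neither count stands out from the background. Fcnb, encoding the recognition protein ficolin B, rose from 14.9 to 91.7 CPM in DMM (log2 fold change 2.62, adjusted p 0.00919) and from 7.61 to 52.2 CPM in naive (2.78, adjusted p 0.0143). The DMM estimate of Fcnb was 3.73 when vehicle mouse 64 was left out, and the naive estimate without AP20187 1 was 2.41 with an adjusted p of 0.0544. Fcnb also stands in the granulocyte precursor list. C1ra, a C1 protease, rose in naive by 1.496 (adjusted p 0.0473), a call lost without any 1 naive mouse but AP20187 5 and vehicle 3 (adjusted p 0.0537 to 0.166). In DMM its estimate was 1.16 (adjusted p 0.0659), which passed without DMM vehicle 64 (1.56, adjusted p 0.0134) or AP20187 61 (1.32, adjusted p 0.0412). Masp1, a lectin pathway protease, fell in DMM by 0.87 on the log2 scale (adjusted p 0.026), a call lost without any 1 of AP20187 58 and 60 and vehicle 32 and 33 (adjusted p 0.0632 to 0.073), and had -0.14 in naive.

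Cfp encodes properdin, which stabilizes the alternative convertase. In DMM it was at 5.32 to 44.8 CPM with vehicle and 36.2 to 84.7 CPM with AP20187, a rise of 1.78 on the log2 scale (adjusted p 0.0111), or 2.475 without DMM vehicle 64. In naive it was at 6.15 to 14.8 CPM and 30.6 to 63.9 CPM, a rise of 2.15 (adjusted p 0.00903). Cfd, factor D, did not pass.

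Of 4 tested terminal pathway genes, 3 rose in DMM and 1 in naive, all at low levels, beside 11.3% and 8.61% of all genes that rose. Hc, which encodes C5, the source of the ligand of C5ar1, was at 3.78 ± 1.09 CPM with AP20187 and 0.907 ± 0.581 CPM with vehicle in DMM (2.06, adjusted p 0.00172), and at 2.76 and 1.32 CPM in naive (1.06, adjusted p 0.0876). C6, a part of the membrane attack complex like C7, rose from 0.207 to 3.63 CPM in DMM mice (adjusted p 0.0132) and from 0.212 to 2.64 CPM in naive mice (adjusted p 0.0405). Its DMM estimate was 4.11, and 5.86 without DMM vehicle 64. The naive call of C6 was lost without any 1 naive mouse but AP20187 5 and vehicle 3 (adjusted p 0.0562 to 0.0917). C7 was at 2.32 and 1.02 CPM in DMM (1.19, adjusted p 0.0337), a call lost without any 1 of AP20187 58, 59 and 60 and vehicle 32 and 34 (adjusted p 0.0501 to 0.0806). In naive it had 0.78 (adjusted p 0.204), and 1.25 (adjusted p 0.0327) without vehicle 4.

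Of 16 regulators tested, 3 rose and 2 fell in DMM, and 1 fell in naive, beside 23.8% and 11.2% of all genes called. Cd55, a membrane protein that dissociates C3 convertases, fell from 638 ± 209 to 282 ± 73.6 CPM in DMM (log2 fold change -1.18, adjusted p 0.00722) and from 719 ± 78.8 to 343 ± 148 CPM in naive (-1.07, adjusted p 0.0292). The naive call of Cd55 was lost without any 1 of AP20187 1 and 3 and vehicle 1, 2 and 5 (adjusted p 0.053 to 0.118). Susd4 fell in DMM (-1.63, adjusted p 0.013) and had -0.44 in naive. Sensory neuron markers fell in the same comparison, 7 of 12 in DMM and 0 in naive, and their part in Cd55 and Susd4 was not tested. Cr1l, a regulator of C3 convertases on rodent cells, rose by 0.39 in DMM (adjusted p 0.0337), a call lost without any 1 of AP20187 58, 59 and 62 and vehicle 32, 33, 34 and 63 (adjusted p 0.0574 to 0.106).

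Of the 10 other receptors and binding proteins, 4 rose and 1 fell in DMM, and 3 rose and 1 fell in naive, beside 23.8% and 11.2% of all genes called. Itgam and Itgb2 encode the chains of complement receptor 3, which binds iC3b. Itgam was at 708 ± 184 CPM with AP20187 and 99.5 ± 80.6 CPM with vehicle in DMM (2.83, adjusted p 0.00138), and at 364 ± 164 and 58.4 ± 27.8 CPM in naive (2.64, adjusted p 0.00424). Itgb2 rose by 2.40 (adjusted p 0.00564) and 2.57 (adjusted p 0.00827), the first being 3.17 without DMM vehicle 64. Calr, encoding calreticulin, which binds C1q, rose by 0.94 (adjusted p 0.000455) and 1.07 (adjusted p 0.000461). Cr2, complement receptor 2 of B cells, fell from 3.21 to 0.828 CPM in DMM (-1.95, adjusted p 0.00588) and from 2.59 to 0.841 CPM in naive (-1.62, adjusted p 0.0369, lost without any 1 of AP20187 1, 3 and 4 and vehicle 3, 4 and 5 at an adjusted p of 0.0628 to 0.0943). Early B lineage markers fell beside it, 9 of 11 in DMM and 8 of 11 in naive, and their part was not tested.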

How the data were processed

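Poly(A) RNA of L3 to L5 ganglia of 19 mice was sequenced after a stranded preparation, per the labels. Whole-number counts and FPKM per gene were deposited by the authors; cutadapt, HISAT2, StringTie and the build GRCm39 are named in the submitters' processing notes without roles or versions, and how the counts were made is not given in the sources used here. Among counts of 1 to 30, 56.7% were even, so low counts may not be single reads. Gene positions are those of the deposited table of 36682 genes. The 9 genes had the same counts there as in a further deposited count matrix of 56691 entries, and the other genes were not compared. That matrix, in which 6448 entries had no name (0.414% to 1.72% of counts), was not used further here.

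The 9 genes, the other gene lists, the ratios and the tests were chosen with earlier results of these data known. Counts were tested with edgeR 4.0.16 (R 4.3.3): TMM normalization, filterByExpr with a minimum count of 10, 1 model of 4 groups over 19 libraries with 15 residual degrees of freedom, two-sided quasi-likelihood F tests and Benjamini-Hochberg adjustment over 22778 genes. The procedure was tested on simulated data. CPM are counts scaled to TMM library size, and correlations used log2 CPM with a prior count of 2. Library totals were 60984830 to 74691396 counts, and the lowest count of any of the 9 genes in a library was 142. Counting error is larger for low genes such as C6. From each other complement list at most the 4 called genes with the smallest p were named, and from each pattern search the 3 genes of highest r with a mean of at least 1 CPM; 2 of the genes so chosen are not reported here.

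Alternatives were DESeq2 1.42.0, library size alone, no filter, limma 3.58.1 on log2(FPKM + 1) or log2(FPKM + 0.1), only the groups compared, subsets of DMM vehicle mice, a replicate block and each mouse left out. The transgene was not analysed here.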

Additional observations from a re-analysis of the deposited data

Results flagged for a closer look

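In each of the 36 combinations of a gene and a group, the highest and lowest mouse were compared with the nearest of the others, and 6 stood far from the rest of their group by Dixon's criterion; chance flags about 1 in 20 groups. Of these, 4 were the same mouse, naive AP20187 3, which was highest of its group in C1qa at 150.0 CPM, C1qb at 131.8 CPM, C1qc at 116.4 CPM and C3ar1 at 28.88 CPM. Its macrophage marker sum was 472 CPM, against 301 to 363 CPM in the other naive AP20187 mice. Other marker sums of this mouse also stood apart from those 3 mice, with fibroblast markers at 6040 against 3050 to 3210 CPM, endothelial markers at 516 against 228 to 355 CPM and sensory neuron markers at 2010 against 5920 to 9980 CPM. The remaining 2 were DMM vehicle 64, highest of its group in C2 at 28.66 CPM and Cfb at 23.12 CPM. Its fibroblast marker sum was 7120 CPM against 1270 to 4500 CPM in the other DMM vehicle mice, its erythroid sum 26700 against 1600 to 11600 CPM and its sensory neuron sum 5090 against 10100 to 13000 CPM. The part of these differences in tissue makeup in the values of both mice was not tested.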

How the results depend on the processing

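The 59 results were recomputed under up to 29 settings each, 1087 comparisons in all. C3 passed in both surgical states under all settings run, as did Cfb and C5ar1 in naive mice; in DMM mice Cfb and C5ar1 lost their call only against vehicle 63 and 64 alone. Members called in DMM (4) were 7 with DESeq2, 7 against vehicle 32 to 34, 1 against vehicle 63 and 64, and 3 to 8 with a mouse left out; in naive (6) they were 3 to 8. Other complement genes called in DMM (16) were 4 against vehicle 63 and 64 and 10 to 22 with a mouse left out. In naive (9) they were 16 with DESeq2 and 4 to 11 with a mouse left out. The share of all genes called also changed with the mice used. The counts in this section are therefore not read as changes of complement genes alone. Between DMM and naive under vehicle, 1 member was called with vehicle 63 and 64 alone, and C5ar1 was -0.44 with 32 to 34 alone. The C3 interaction, near 0, changed sign: 0.004 with DESeq2, 0.009 without TMM, 0.379, 0.377 and 0.379 with limma on log2(FPKM + 1), log2(FPKM + 0.1) and the first without a filter, 0.82 with vehicle 32 to 34 (-0.79 with 63 and 64), and -0.29 to 0.57 with a mouse left out. The cause was not tested. Naive mice share numbers 1, 3, 4 and 5 between treatments, but same-number mice had correlated deviations of 0.023, 0.301, -0.082 and 0.183, so the numbers were not taken as pairs; with them as a replicate block 8 members and 12 other complement genes were called in naive.

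With 4 or 5 mice a group, the 95% interval of each of the 9 genes spanned over 1 log2 unit in the AP20187 comparisons, C4b (0.22 to 1.30 in DMM) included, so a gene that was not called may still differ.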
